A study of Mus musculus with 8 samples.

Results

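The transcripts described here are those of 8 genes of the PI3K, AKT and FOXO pathway in mouse aorta: Pik3ca, Pik3cb, Pik3r1, Pdpk1, Akt1, Akt2, Foxo1 and Foxo3. Each gene was taken by its name from the 48607 assembled loci of the deposited gene table, and where several loci carried the name, the locus with the largest count over the 8 libraries was used. The entire aorta was collected from mice on a Western diet, and poly(A) RNA was sequenced in 5 libraries titled ApoE-/- and 3 libraries titled NPRC-/-ApoE-/-. ApoE-/- mice lack apolipoprotein E and readily develop atherosclerosis on this diet. NPRC-/-ApoE-/- mice carry in addition a frameshift in the first exon of Npr3, the gene of natriuretic peptide receptor C (NPRC), made by CRISPR editing in C57BL/6 mice, a systemic loss that is not restricted to a cell type. Both groups were littermates on the same diet, so all 8 libraries share the Apoe deletion and the diet. The methods give a starting age for the purchased male ApoE-/- mice, but not for the littermates used here.

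The title and the genotype entry of the libraries name different genotypes for 4 of the 8 libraries. The libraries titled ApoE-/- 4 and 5 were entered as NPRC-/-ApoE-/-, and those titled NPRC-/-ApoE-/- 1 and 2 were entered as ApoE-/-. Groups below are those of the titles, and each comparison was repeated by genotype entry, which also gives 5 and 3 libraries. The transcript of Npr3 did not settle the conflict, since its FPKM was 0.62 to 1.69 in the libraries titled ApoE-/- and 1.13 to 1.39 in those titled NPRC-/-ApoE-/-. A frameshift need not lower the transcript level, so this gene checks no label. Apoe is deleted in both genotypes, so it cannot tell the labels apart, and its locus was shared with Tomm40.

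Class I PI3K makes a phosphoinositide at the inner face of the plasma membrane when a growth factor receptor is active. Its catalytic subunits are held stable and inhibited by a regulatory subunit. The lipid recruits PDK1, the product of Pdpk1, and AKT, and PDK1 phosphorylates AKT. AKT in turn phosphorylates FOXO transcription factors, which then leave the nucleus and no longer drive genes of cell-cycle arrest, apoptosis and antioxidant defence. In endothelial cells AKT also phosphorylates endothelial nitric oxide synthase. The pathway is switched mainly by phosphorylation, and the values below are transcript levels, which say nothing of the phosphorylation or activity of the proteins. The study followed AKT1 phosphorylation in cultured human aortic endothelial cells after loss or overexpression of NPRC. It also did so under forskolin, which it used to activate protein kinase A, and under the inhibitor H89. The question put to these libraries is whether the transcripts of the pathway differed between the aortas of the 2 genotypes.

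None of the 8 genes passed a test of the difference between the titled groups. With edgeR's quasi-likelihood test, 0 of 8 had an adjusted p-value under 0.05, against 0.0% of the 20506 loci tested, and 0 of 8 had an unadjusted p-value under 0.05, against 13.6% of all loci. The criterion used by the study, more than 2-fold or less than 0.5-fold together with an unadjusted p under 0.05, was met by 0 of the 8 genes and by 3.47% of all loci. In none of the 8 genes were the FPKM ranges of the titled groups apart, while they were apart for 7.25% of all loci. DESeq2 and limma on log2(FPKM + 1) also gave an unadjusted p-value under 0.05 to 0 of the 8 genes, although DESeq2 called 650 loci at an adjusted p-value under 0.05 and limma 2. By genotype entry, edgeR called 0 of 8 genes by any of these criteria, and the backgrounds were 0.0% at the adjusted p-value, 1.31% at the unadjusted p-value, 0.463% for the fold criterion and 0.97% for ranges that were apart. Of the 8 genes, 5 were on the lower side and 3 on the higher side in NPRC-/-ApoE-/- under either label. Their median log2 fold change was -0.10 by title, beside -0.01 over all loci.

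**Figure D1:**
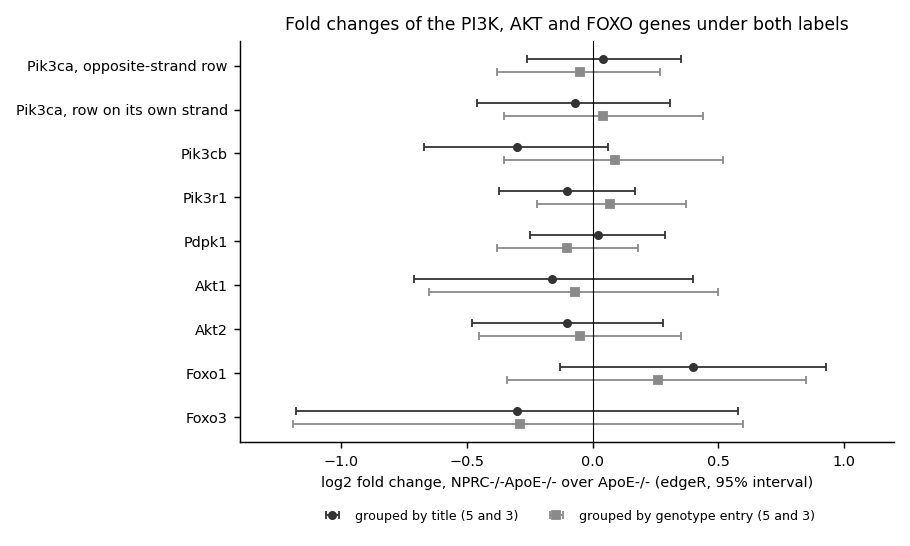
Log2 fold changes (horizontal axis) with 95% intervals from edgeR for each gene, grouped by title (circles) and by genotype entry (squares), 5 against 3 libraries in both. Every interval includes 0, the intervals of Foxo3 are the widest, and 4 of the 8 genes as chosen lie on opposite sides of 0 under the 2 labels.

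The intervals show how large a difference these libraries could still hold. They were narrowest for Pdpk1, from 0.844-fold to 1.23-fold by title, and for Pik3r1, from 0.774-fold to 1.13-fold. For Foxo3 the interval ran from 0.441-fold to 1.49-fold, which includes a fall to below 0.5-fold. A test result that misses the threshold does not show equal levels in the 2 genotypes.

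Pik3ca and Pik3cb encode the broadly expressed alpha and beta catalytic subunits of class I PI3K. The row that the choice by count gave for Pik3ca does not lie on the strand of the gene. It spans chromosome 3 from 32402095 to 32432667 on the minus strand (GRCm38), inside the gene, which runs from 32397671 to 32468486 on the plus strand. GENCODE M21 annotates 0 genes on that strand over this interval. The count of the row, 66736 over the 8 libraries, was above the 50385 of the row on the strand of Pik3ca. Both rows are therefore given, and the row on the gene's own strand was added after the strand of the chosen row was seen.

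On its own strand, Pik3ca was measured at 6.08, 6.98, 8.65, 8.13 and 7.52 FPKM in ApoE-/- 1 to 5 and at 8.10, 6.57 and 6.47 FPKM in NPRC-/-ApoE-/- 1 to 3. The groups overlapped over nearly all of their range, and NPRC-/-ApoE-/- 1 lay among the higher ApoE-/- libraries. By title, the log2 fold change was -0.07 ± 0.17 (SE, adjusted p = 0.867, edgeR). The chosen row on the opposite strand held 3.23, 2.80, 2.53, 2.31 and 3.59 FPKM in ApoE-/- and 3.04, 3.19 and 2.54 FPKM in NPRC-/-ApoE-/-, again overlapping. Its log2 fold change was 0.04 ± 0.14 (SE, adjusted p = 0.913, edgeR). The rows did not follow each other from library to library: ApoE-/- 3 and 4 were the highest on the gene's strand and the lowest on the opposite strand.

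Pik3cb was measured at 3.86, 3.09, 3.42, 4.37 and 3.43 FPKM in ApoE-/- 1 to 5 and at 3.38, 2.86 and 2.53 FPKM in NPRC-/-ApoE-/- 1 to 3. Libraries NPRC-/-ApoE-/- 2 and 3 lay below all 5 ApoE-/- libraries, and NPRC-/-ApoE-/- 1 lay within their range. The means were 3.63 ± 0.494 (SD, n = 5) and 2.92 ± 0.429 (SD, n = 3). The log2 fold change was -0.30 ± 0.16 (SE) with an unadjusted p-value of 0.0928 and an adjusted p-value of 0.432 (edgeR). This was the smallest unadjusted p-value among the 8 genes, and by genotype entry the value was on the other side, 0.09 ± 0.19 (SE, adjusted p = 1, edgeR). Without ApoE-/- 2 the log2 fold change by title was -0.37 with an unadjusted edgeR p-value of 0.0492 and an adjusted one of 0.495.

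Pik3r1 encodes the regulatory subunit that binds both catalytic subunits. It held 6.58, 5.85, 4.94, 5.75 and 6.72 FPKM in ApoE-/- 1 to 5 and 6.03, 5.18 and 5.21 FPKM in NPRC-/-ApoE-/- 1 to 3. All 3 NPRC-/-ApoE-/- libraries lay inside the range of the ApoE-/- libraries, and the log2 fold change was -0.10 ± 0.12 (SE, adjusted p = 0.740, edgeR). Among the 8 libraries the highest FPKM was 1.36 times the lowest.

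Pdpk1 encodes PDK1, the kinase that activates AKT at the membrane. Its locus also carried the name Amdhd2, an enzyme of amino sugar metabolism, and reached on chromosome 17 from 24073680 to 24163766, past the annotated end of Pdpk1 at 24150924, so counts of the neighbours cannot be separated. The locus was measured at 5.92, 4.78, 4.41, 4.74 and 4.95 FPKM in ApoE-/- and at 5.58, 4.96 and 4.36 FPKM in NPRC-/-ApoE-/-. The group means were nearly the same, 4.96 ± 0.571 (SD, n = 5) and 4.97 ± 0.610 (SD, n = 3). Between them the log2 fold change was 0.02 ± 0.12 (SE, adjusted p = 0.948, edgeR), and the coefficient of variation over all 8 libraries, 10.9%, was the lowest of the 8 genes.

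Akt1 and Akt2 encode the 2 AKT kinases studied most in the vessel wall and in insulin-responsive tissue. Each was a single row that spanned exactly its annotated gene, Akt1 on chromosome 12 from 112653821 to 112674884 (minus strand) and Akt2 on chromosome 7 from 27591552 to 27640826 (plus strand), with no counts on an opposite-strand row. Akt1 held 20.79, 30.52, 30.01, 32.75 and 19.81 FPKM in ApoE-/- 1 to 5 and 30.96, 20.05 and 20.86 FPKM in NPRC-/-ApoE-/- 1 to 3. The values fell at 2 levels, near 20 and above 30 FPKM, with no library between 20.86 and 30.01. Each titled group had libraries at both levels, and so had each group by genotype entry.

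The log2 fold change of Akt1 by title was -0.16 ± 0.25 (SE, adjusted p = 0.803, edgeR), and by entry it was -0.07 ± 0.26 (SE, adjusted p = 1, edgeR). Akt2 was measured at 12.69, 18.93, 11.73, 13.95 and 15.44 FPKM in ApoE-/- and at 16.01, 12.64 and 11.47 FPKM in NPRC-/-ApoE-/-. It did not share the 2 levels of Akt1: ApoE-/- 3, with 30.01 FPKM of Akt1, had 11.73 FPKM of Akt2, near the lowest. Its log2 fold change was -0.10 ± 0.17 (SE, adjusted p = 0.817, edgeR). Akt1 was above Akt2 in 8 of 8 libraries, by 1.28 times in ApoE-/- 5 to 2.56 times in ApoE-/- 3.

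Foxo1 and Foxo3 encode forkhead transcription factors that AKT phosphorylates. The locus of Foxo1 also carried the names Gm38034 and Gm38098 and ran on chromosome 3 from 52268336 to 52425648, well past the annotated end of Foxo1 at 52353221. It held 2.67, 2.34, 1.64, 2.05 and 2.22 FPKM in ApoE-/- 1 to 5 and 1.80, 2.96 and 3.64 FPKM in NPRC-/-ApoE-/- 1 to 3. Libraries NPRC-/-ApoE-/- 2 and 3 lay above all 5 ApoE-/- libraries, and NPRC-/-ApoE-/- 1 was the second lowest of all 8. The means were 2.18 ± 0.379 (SD, n = 5) and 2.80 ± 0.930 (SD, n = 3). The log2 fold change was 0.40 ± 0.23 (SE) with an unadjusted p-value of 0.122 and an adjusted p-value of 0.470 (edgeR), the only one of the 8 genes whose value exceeded 0.1 on the higher side. It depended on single libraries: without NPRC-/-ApoE-/- 1 it was 0.65 with an unadjusted edgeR p-value of 0.00688 and an adjusted one of 0.106, and without NPRC-/-ApoE-/- 3 it was 0.14 with an unadjusted edgeR p-value of 0.569 and an adjusted one of 0.899. By entry it was 0.26 ± 0.26 (SE, adjusted p = 1, edgeR).

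Foxo3, on chromosome 10 from 42181841 to 42276755 (minus strand), varied most among the libraries. It was measured at 2.88, 2.98, 7.32, 3.74 and 3.50 FPKM in ApoE-/- 1 to 5 and at 4.94, 2.34 and 2.73 FPKM in NPRC-/-ApoE-/- 1 to 3. ApoE-/- 3 was 3.13 times the lowest library, NPRC-/-ApoE-/- 2, and the coefficient of variation was 42.8%, beside 27.2% for Foxo1 and 22.4% for Akt1. Its log2 fold change by title was -0.30 ± 0.39 (SE, adjusted p = 0.756, edgeR). Leaving out ApoE-/- 3 turned its direction, to 0.06. By entry it was -0.29 ± 0.39 (SE, adjusted p = 1, edgeR), and 0.07 without ApoE-/- 3.

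**Figure D2:**
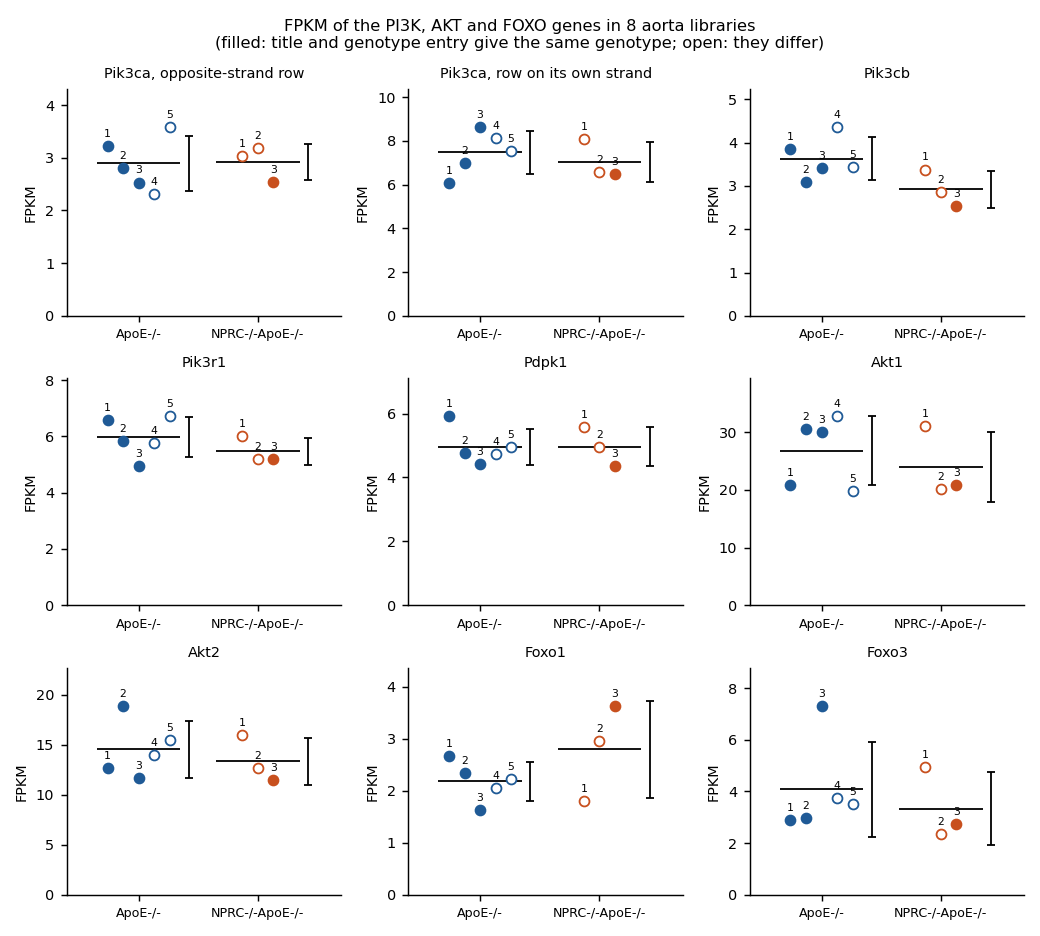
FPKM (vertical axes, from 0) of each gene in the 8 libraries by titled group, numbered by replicate, with the mean (line) and SD (bar) of each group. Open points are the 4 libraries whose title and genotype entry differ. The groups overlap in every panel, Akt1 lies near 20 or above 30 FPKM, and Foxo3 in ApoE-/- 3 stands at 7.32 FPKM.

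The rows on the opposite strand were not particular to Pik3ca. Of the counts in rows that carry each name, the opposite strand held 56.98% for Pik3ca, 36.64% for Foxo3, 34.17% for Pdpk1 in 5 rows, 27.64% for Pik3r1 and 20.39% for Pik3cb. It held 0.02% for Foxo1, and no such row existed for Akt1 or Akt2. None of these rows overlapped a gene annotated on its own strand. Of the 9 rows that passed the filter on low values, 0 had an unadjusted p-value under 0.05 by title (edgeR; lowest 0.177, for the row opposite to Pik3r1, at 0.33 ± 0.23 SE on the log2 scale). For Foxo3 the ratio of sense to opposite counts ran from 0.965 to 3.43 among the libraries. The methods describe a second cDNA strand labelled with dUTP and treated with the enzyme UDG before amplification, and StringTie run with default parameters. Whether assembly and counting used the strand of the reads is not stated in the sources used here. The source of the opposite-strand counts was not tested.

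**Figure D3:**
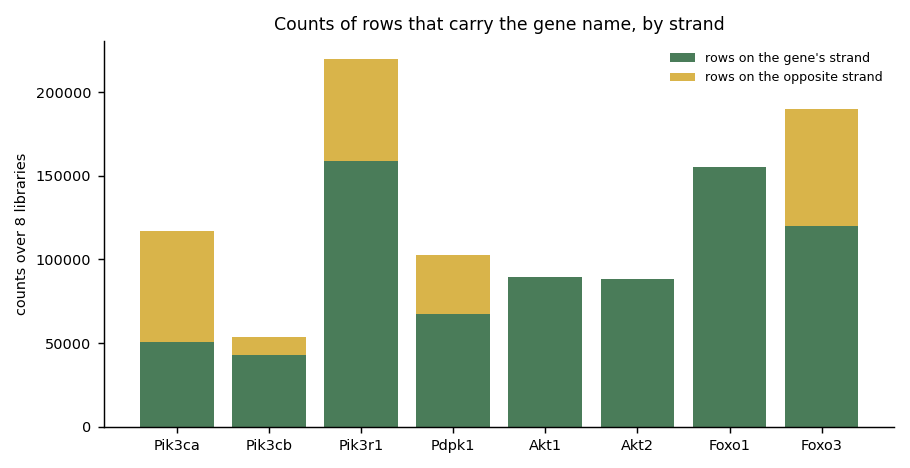
Counts summed over the 8 libraries (vertical axis) of all rows that carry each gene's name, split by whether the row lies on the gene's strand. Pik3ca is the only gene with more counts on the opposite strand, 66736 against 50385.

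The order of the genes by level depended on the length by which counts are divided. As deposited, in FPKM, the medians over 8 libraries ran from Akt1 (25.4) and Akt2 (13.3) over Pik3ca on its own strand (7.25), Pik3r1 (5.80), Pdpk1 (4.87) and Pik3cb (3.40) to Foxo3 (3.24) and Foxo1 (2.28). Each gene was above the next in 7 or 8 of 8 libraries down to Pik3cb. Pik3cb and Foxo3 were not separated, with Pik3cb higher in 4 of 8. The length behind the FPKM values, worked out from counts and FPKM of the same row, was 85.3 kb for Foxo1, where the longest annotated transcript has 8.66 kb. It was 41.2 kb against 6.85 kb for Foxo3 and 36.4 kb against 7.11 kb for Pik3r1. For Akt1 it was 4.60 kb against 2.69 kb, and for Pik3ca on its own strand 9.09 kb against 8.92 kb. The opposite-strand row of Pik3ca had 30.6 kb, its whole genomic span, which is that of a row without introns.

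Divided instead by the longest annotated transcript, as CPM per kb, Akt1 was still first at 52.4 (median; 40.6 to 66.2). Pik3r1 followed at 35.3, Akt2 at 29.5, Foxo1 at 26.9, Foxo3 at 23.3 and Pdpk1 at 14.7, and the catalytic subunits were last, Pik3cb at 10.5 and Pik3ca at 8.86. On this scale Foxo1 rose from the last to the fourth place, and Akt2, Foxo1 and Foxo3 were not separated: Akt2 was above Foxo1, and Foxo1 above Foxo3, in 5 of 8 libraries each. Foxo3 was above Pdpk1 in 8 of 8. Counts that fall outside annotated exons enter this scale in full.

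**Figure D4:**
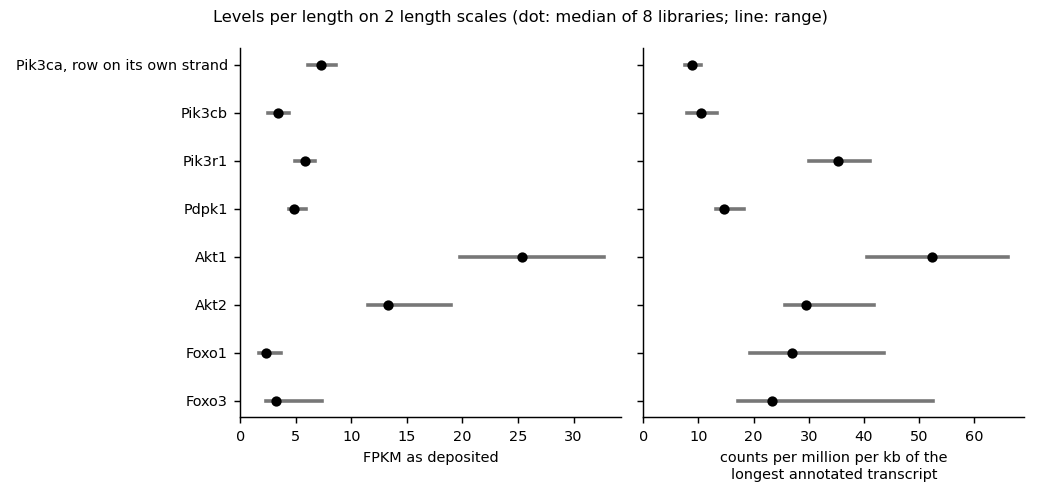
Median (dot) and range (line) over 8 libraries of each gene's level, in FPKM as deposited (left) and in CPM per kb of the longest annotated transcript (right). Foxo1 moves from 2.28 on the left, the lowest, to 26.9 on the right, the fourth highest.

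Ratios within a library do not depend on how the libraries were scaled. Their difference between the titled groups was tested with a two-sided exact permutation test over 56 splits, for which the smallest p-value is 0.0179, and 5 ratios were compared. The log2 ratio of Akt1 to Akt2 differed by -0.04 (p = 0.875, exact permutation, adjusted 0.875). That of Foxo1 to Foxo3 was -0.83 ± 0.80 (SD, n = 5) in ApoE-/- and -0.23 ± 1.06 (SD, n = 3) in NPRC-/-ApoE-/-, a difference of 0.59 (p = 0.429, exact permutation, adjusted 0.714), and it spanned 0.224 to 1.33 on the linear scale. This difference was 0.26 without ApoE-/- 3, 0.31 without NPRC-/-ApoE-/- 2, 0.27 without NPRC-/-ApoE-/- 3 and 1.21 without NPRC-/-ApoE-/- 1, and 1.29 over the 4 libraries whose labels agree. The regulatory to catalytic ratio, Pik3r1 to the sum of Pik3ca and Pik3cb, ran from 0.830 to 1.03 and differed by 0.04 (p = 0.607, exact permutation, adjusted 0.759). With Pik3ca on its own strand this ratio was 0.409 to 0.662 and differed by 0.04 (p = 0.857, exact permutation, adjusted 0.875). Pik3ca to Pik3cb differed by 0.34 (p = 0.214, exact permutation, adjusted 0.536), and with the row on the gene's strand by 0.23 (p = 0.196, exact permutation, adjusted 0.491). The leukocyte catalytic subunits Pik3cd and Pik3cg, relative to Pik3ca and Pik3cb, differed by -0.69 (p = 0.125, exact permutation, adjusted 0.536). With the row of Pik3ca on its own strand that difference was also -0.69 (p = 0.0536, exact permutation, adjusted 0.268). By genotype entry the 5 ratios had exact permutation p-values of 0.339 to 0.839.

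Among the 28 pairs of genes, 0 correlated over the 8 libraries at an adjusted p-value under 0.05 (Pearson's r of log2 CPM, exact permutation test over pairings). Foxo1 and Foxo3 went in opposite directions, with r = -0.73 (p = 0.041, exact permutation, adjusted 0.531) and Spearman's rho = -0.83 (p = 0.0154, exact permutation, adjusted 0.431). Without the 2 libraries farthest from the median of Foxo1, r was -0.88. Pik3ca as chosen and Foxo3 had r = -0.33 (p = 0.434, exact permutation, adjusted 0.868) and rho = -0.31 (p = 0.462, exact permutation, adjusted 0.905). With the row of Pik3ca on its own strand, which was added later, the pair had r = 0.88 (p = 0.00218, exact permutation, adjusted 0.0611) and rho = 0.95 (p = 0.00114, exact permutation, adjusted 0.0319), and r was 0.81 without the 2 libraries farthest from the median of Pik3ca. Pairs with Akt1 are not given singly, because its libraries fell at 2 levels. All pairs share the same 8 libraries, their scaling and their mix of cells.

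For each gene, the single-name locus with the most similar profile was sought among 18463 loci by Pearson's r of log2 CPM over the 8 libraries. Akt1 was closest to Eif2b5 (r = 0.992), a subunit of a translation initiation factor, and 690 loci had an r above 0.9 with it. Akt2 was closest to Atp5f1 (r = 0.985), a subunit of the mitochondrial ATP synthase, with 89 such loci. Foxo1 was closest to Gm38110 (r = 0.991, 53 loci), Foxo3 to Dnajc9 (r = 0.965, 13 loci), Pik3cb to Pnpt1 (r = 0.975, 112 loci), Pik3r1 to Arhgap6 (r = 0.953, 15 loci) and Pdpk1 to Gpr146 (r = 0.939, 9 loci). Pik3ca was closest to Terf2ip on its own strand (r = 0.974, 43 loci) and to Ube2w on the opposite strand (r = 0.986, 191 loci). Each r is the largest among all loci compared over 8 libraries, and these values are descriptions.

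The summed levels of cell type markers differed between libraries, in part along the titled groups. Over 7 smooth muscle genes the summed FPKM was 1329 to 1776 in ApoE-/- and 1705 to 2944 in NPRC-/-ApoE-/-. Over 7 macrophage genes it was 594.3 to 1794 and 287.8 to 943.1. The macrophage sum takes in loci shared with other genes: that of Cd68 carries 8 names, Eif4a1 among them, and that of Itgam 3. In NPRC-/-ApoE-/- 2 and 3, the libraries with the most Foxo1, the smooth muscle sum was 2475.9 and 2944.1 and the macrophage sum 368.7 and 287.8. ApoE-/- 1, next in Foxo1 at 2.67 FPKM, had the lowest smooth muscle sum of all 8, 1328.7, and a macrophage sum of 806.4. In ApoE-/- 3, the library with the most Foxo3, the macrophage sum was 1679.2, the fibroblast sum 1331.5 and the brown fat sum 110.5, the lowest of all 8. ApoE-/- 4 had a higher macrophage sum, 1793.6, and a fibroblast sum of 1289.9, with Foxo3 at 3.74 FPKM. The sum of 7 endothelial markers stayed between 85.56 and 101.5 in all 8 libraries. The 4 sympathetic neuron markers were at 2.37 to 16.95 in ApoE-/- and at 0.37 to 0.92 in NPRC-/-ApoE-/-. In whole aorta, fewer cells of a type and less RNA per cell cannot be told apart, and the part of these markers in the values of the 8 genes was not tested.

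Around the 8 genes, 75 further genes of the pathway were read in 9 lists by role, of which 71 passed the filter on low values. With edgeR, 0 of 71 had an adjusted p-value under 0.05, 10 were lower and 3 higher at an unadjusted p-value under 0.05, and the median log2 fold change was -0.12. Of all loci, 7.13% were lower and 6.51% higher at that p-value. DESeq2 gave an adjusted p-value under 0.05 to 3 of them, Insr, Gadd45a and Bcl2l11, and an unadjusted one to 16, which are 4.23% and 22.5% of the 71, beside 3.17% and 16.7% of all loci. With limma on log2(FPKM + 1), 12 had an unadjusted p-value under 0.05, 16.9% beside 14.1% of all loci. By genotype entry the edgeR counts were 0 lower and 1 higher, 1.41% of the 71 beside 1.31% of all loci. The lists are of unequal size, and nothing below is particular to a list. The FPKM ranges of the titled groups were apart for 7.25% of all loci. Genes named below for small p-values were picked from these same values.

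**Figure D5:**
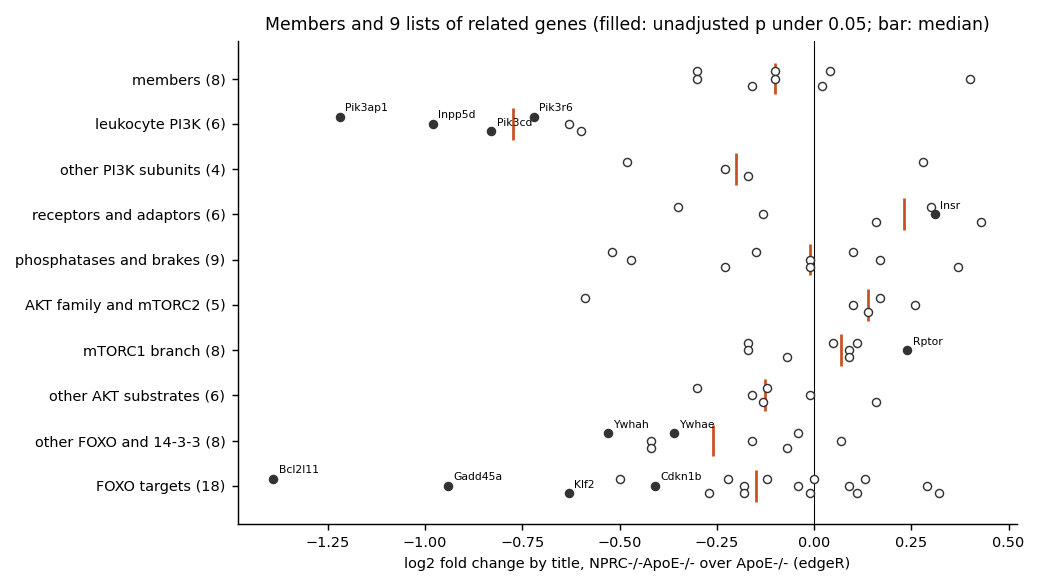
Log2 fold changes by title (horizontal axis) of the 8 genes and of the genes tested in 9 lists of related genes, filled where the unadjusted edgeR p-value was under 0.05, with the median of the genes drawn in each list as a bar. Of the 71 genes tested, 1 is not drawn. The 6 leukocyte PI3K genes all lie below 0, and Bcl2l11 at -1.39 is the lowest of all.

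Leukocytes use PI3K subunits of their own, and the list of leukocyte PI3K genes also holds an adaptor, Pik3ap1, and a lipid phosphatase, Inpp5d. All 6 genes of the list were on the lower side in NPRC-/-ApoE-/-, as were 50.9% of all loci. Of the 6, 4 had an unadjusted p-value under 0.05 (edgeR), and 7.13% of all loci were lower at that p-value. The median log2 fold change of the list was -0.78 by title and -0.30 by entry. Inpp5d, the lipid phosphatase SHIP of blood cells, was the most abundant, at 6.84, 7.15, 8.75, 9.16 and 4.81 FPKM in ApoE-/- and 5.75, 2.73 and 2.74 FPKM in NPRC-/-ApoE-/-. Its log2 fold change was -0.98 ± 0.32 (SE, adjusted p = 0.290, edgeR). Pik3ap1, an adaptor of B cells and macrophages, was at -1.22 ± 0.40 (SE, adjusted p = 0.292, edgeR). Pik3r6, a regulatory subunit of the gamma enzyme, was at -0.72 ± 0.23 (SE, adjusted p = 0.285, edgeR). With 1 library left out, the unadjusted edgeR p-value was under 0.05 in 6 of 8 fits for Inpp5d, 6 of 8 for Pik3ap1 and 8 of 8 for Pik3r6. By entry these 3 genes were at -0.13, -0.29 and -0.12. The macrophage marker sum was lowest in NPRC-/-ApoE-/- 2 and 3, and in NPRC-/-ApoE-/- 1 (943.1) it was above that of ApoE-/- 1 (806.4) and 5 (594.3). The 6 lymphocyte markers summed to 1.96 to 10.67 FPKM in ApoE-/- and 1.09 to 2.65 in NPRC-/-ApoE-/-, and the 6 fibroblast markers to 505.9 to 1332 and 282.1 to 701.2. The part of these cell types in the leukocyte PI3K values was not tested.

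Upstream, 1 of 6 receptors and adaptors had an unadjusted p-value under 0.05 (edgeR), beside 13.6% of all loci. The chosen rows of Igf1r, a growth factor receptor, and Gab1, an adaptor, lie on the strand opposite to their genes. On the strand of the gene Igf1r was at 0.29 ± 0.12 (SE, unadjusted p = 0.0432, adjusted p = 0.353, edgeR) and Gab1 at 0.21 ± 0.16 (SE, adjusted p = 0.560, edgeR), and with these rows 4 of the 71 list genes were higher in place of 3. Insr, the insulin receptor, held 12.17, 11.63, 10.32, 10.75 and 12.89 FPKM in ApoE-/- and 14.08, 13.82 and 14.15 FPKM in NPRC-/-ApoE-/-. The titled groups did not overlap, which held for 7.25% of all loci. The log2 fold change was 0.31 ± 0.10 (SE, adjusted p = 0.309, edgeR), with an adjusted DESeq2 p-value of 0.0404. By entry it was 0.06 ± 0.16 (SE, adjusted p = 1, edgeR). The most abundant of the list was Irs2, an adaptor of the insulin receptor, at -0.13 ± 0.22 (SE, adjusted p = 0.823, edgeR). Of the other PI3K subunits, 0 of 4 had an unadjusted p-value under 0.05 (edgeR), beside the same 13.6% of all loci. The most abundant of them, Pik3r2, shares its locus with Ifi30, a thiol reductase of antigen-presenting cells. Of the phosphatases and brakes, 0 of 9 tested had such a p-value, again beside 13.6% of all loci. Phlda3, which competes with AKT for the membrane lipid, was the most abundant of them, at -0.52 ± 0.32 (SE, adjusted p = 0.486, edgeR).

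In the list of AKT-related kinases and mTORC2, the most abundant gene, Sgk1, a kinase related to AKT, was at -0.59 ± 0.31 (SE, adjusted p = 0.433, edgeR). In the mTORC1 branch 1 of 8 had an unadjusted p-value under 0.05 (edgeR), beside 13.6% of all loci. This gene was Rptor, the scaffold of that complex, at 0.24 ± 0.10 (SE, adjusted p = 0.334, edgeR). With 1 library left out, the unadjusted edgeR p-value of Rptor was under 0.05 in 1 of 8 fits, and by entry Rptor was at -0.03. The most abundant, Tsc2, a brake on mTORC1, was at 0.05 ± 0.10 (SE, adjusted p = 0.850, edgeR). Of the other AKT substrates, 0 of 6 had an unadjusted p-value under 0.05 (edgeR), beside the same 13.6% of all loci. Gsk3a, a kinase that AKT inhibits, was the most abundant at 0.16 ± 0.11 (SE, adjusted p = 0.533, edgeR).

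FOXO proteins that AKT has phosphorylated are bound by 14-3-3 proteins in the cytoplasm. Among 8 other FOXO and 14-3-3 genes tested, 2 were lower at an unadjusted p-value under 0.05 (edgeR), beside 7.13% of all loci. Ywhae held 33.66, 36.17, 34.03, 33.93 and 33.52 FPKM in ApoE-/- and 29.52, 24.48 and 24.86 FPKM in NPRC-/-ApoE-/-, without overlap, and its log2 fold change was -0.36 ± 0.11 (SE, adjusted p = 0.285, edgeR). Ywhah was at -0.53 ± 0.23 (SE, adjusted p = 0.360, edgeR). With 1 library left out, the unadjusted edgeR p-value was under 0.05 in 7 of 8 fits for Ywhae and 3 of 8 for Ywhah. By entry, Ywhae was at -0.01 and Ywhah at 0.0. The most abundant, Ywhab, was at -0.04 ± 0.13 (SE, adjusted p = 0.913, edgeR).

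Of the genes known as FOXO targets, 18 of 19 were tested and 4 were lower, none higher, at an unadjusted p-value under 0.05 (edgeR). Over all loci, the shares lower and higher at that p-value were 7.13% and 6.51%. Bcl2l11 encodes BIM, a protein that starts apoptosis, and held 2.54, 3.64, 4.14, 4.28 and 2.34 FPKM in ApoE-/- 1 to 5 and 1.32, 1.38 and 1.16 FPKM in NPRC-/-ApoE-/- 1 to 3. All 3 NPRC-/-ApoE-/- libraries lay below every ApoE-/- library. The log2 fold change was -1.39 ± 0.27 (SE, unadjusted p = 0.00056, adjusted p = 0.203, edgeR), and DESeq2 gave an adjusted p-value of 0.0002. Without any 1 of the 8 libraries it stayed between -1.51 and -1.28, with an unadjusted edgeR p-value under 0.05 in 8 of 8. By entry it was 0.02 ± 0.51 (SE, adjusted p = 1, edgeR).

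Gadd45a, a stress gene of growth arrest, held 2.80, 2.18, 3.24, 2.68 and 2.20 FPKM in ApoE-/- and 1.30, 1.42 and 1.32 FPKM in NPRC-/-ApoE-/-, again without overlap. For this gene the log2 fold change was -0.94 ± 0.21 (SE, adjusted p = 0.224, edgeR; adjusted p = 0.00352, DESeq2), and -0.06 ± 0.37 by entry (SE, adjusted p = 1, edgeR). Cdkn1b, a brake on the cell cycle, was at -0.41 ± 0.16 (SE, adjusted p = 0.325, edgeR). With 1 library left out, the unadjusted edgeR p-value of Cdkn1b was under 0.05 in 5 of 8 fits, and by entry Cdkn1b was at 0.1. Txnip, a regulator of thioredoxin and the most abundant target, was at 0.13 ± 0.20 (SE, adjusted p = 0.805, edgeR). The fourth gene on the lower side was Klf2, and the fourth of the leukocyte list was Pik3cd. Both fall outside the rule for named genes and were named after their values were seen.

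A forkhead motif was sought in the RefSeq promoter windows of GRCm38.p6, which reach from 250 bases before to 50 bases after each annotated start, as GTAAACA on either strand (TGTTTAC on the other). It was in the window of 1 of the 8 genes, Akt1, in 5 of the 17 FOXO targets with a window (29.4%), and in 4.05% of the 27025 genes with one. The stretches below show it, in capitals, for Akt1 and for the FOXO targets Bcl2l11 and Txnip, the gene with the smallest p-value and the most abundant one, 5′ to 3′ on the strand of the gene.
Akt1, chr12:112675027-112675056, minus strand: atctaccctctTGTTTACactcctggtgaa
Bcl2l11, chr2:128125800-128125829, plus strand: aagacactaggGTAAACAcgccggggtggg
Txnip, chr3:96557825-96557854, plus strand: ttggaggcctgGTAAACAagggccaagtag
A match describes the letters of the window and is not a measured binding site.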

How the data were processed

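Poly(A) RNA of whole aortas was sequenced, and the 8 libraries of the series held 62969165 to 86693276 counts each. The authors trimmed reads (cutadapt 1.9 and FastQC in the submitters' processing notes, which name GRCm38), aligned them with HISAT2 and assembled loci with StringTie. The authors deposited 1 table of 48607 loci with whole-number counts, not normalized, and with FPKM values, which are scaled to length and library. The table's identifiers and coordinates were matched to GENCODE M21. All per-sample columns belonged to the 8 samples.

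The 20506 loci that reached 1 FPKM in 3 or more libraries were fitted together with edgeR 4.0.16 in R 4.3.3. The fit used TMM factors, the quasi-likelihood test and Benjamini-Hochberg adjustment, and was tried on simulated counts. There, 23 of 100 loci changed 2-fold and 88 of 100 changed 4-fold had an adjusted p-value under 0.05, beside 9 unchanged loci. Most simulated 2-fold changes were thus missed. DESeq2 1.42.0 and limma 3.58.1 (pseudocount of 1 or 0.1 FPKM) were alternatives, beside other scaling, filters, the replicate block, the genotype entry and each library left out. Intervals are 95% intervals of the fitted fold change. Log2 CPM values used a prior count of 2. The length behind FPKM was calibrated on 350 loci that equal a GENCODE gene with 1 transcript. Promoter sequences are from RefSeq, and all 8 genes matched.

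Named were all 8 genes, and of each list the gene with the highest mean FPKM and up to 3 with the smallest unadjusted p-values under 0.05. The result of 1 list gene is not reported here. The genes, lists and tests were chosen with earlier results of these data known. Whether same-numbered libraries share a litter or day is not given in the sources used here. The labels describe aortas of separate mice, and the p-values measure the spread between these libraries.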

Additional observations from a re-analysis of the deposited data

Results flagged for a closer look

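Of 44 groups of 4 or more libraries screened for a library far from the others, 0 were flagged, where chance alone would give about 2.2. The screen left out the titled group of 3 libraries. Foxo3 in ApoE-/- 3, at 7.32 FPKM beside 2.88 to 3.74 in the other ApoE-/- libraries, was not flagged. A count of 0 therefore does not show that no library lies apart.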

How the results depend on the processing

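By title, 0 of the 8 genes had an adjusted p-value under 0.05 under any alternative, and at an unadjusted one leaving out 1 library gave 0 to 1 (Pik3cb without ApoE-/- 2, Foxo1 without NPRC-/-ApoE-/- 1). Directions were less stable. With groups from the genotype entry, the log2 fold changes turned to -0.05 for Pik3ca, 0.09 for Pik3cb, 0.07 for Pik3r1 and -0.10 for Pdpk1, and the log2 ratio of Pik3ca to Pik3cb to -0.12. Over the 4 libraries whose labels agree, 3 against 1 without a test, they were -0.06 for Pik3ca and -0.10 for Pdpk1, the ratio of Pik3r1 to the catalytic subunits moved to 0.17 and the leukocyte ratio to -1.25. The row of Pik3ca on its own strand, chosen after seeing the data, gave -0.07 by title and 0.04 by entry. Leaving out 1 library turned Pik3ca (-0.01 to 0.12), Pdpk1 (-0.05 to 0.09) and Foxo3 (-0.67 to 0.06) by title. Foxo1 by title kept its direction (0.14 to 0.65). By entry, leaving out 1 library turned Pik3ca (-0.20 to 0.05), Pik3cb (-0.16 to 0.25), Akt1 (-0.38 to 0.10), Akt2 (-0.10 to 0.06), Foxo1 (-0.09 to 0.41) and Foxo3 (-0.43 to 0.07). The ratios were refitted with 1 library left out by title only. That of Akt1 to Akt2 ran from -0.17 to 0.08 and that of Foxo1 to Foxo3 from 0.26 to 1.21. That of Pik3r1 ran from -0.02 to 0.11 and the leukocyte ratio from -1.04 to -0.52. The value of -1.04 came without NPRC-/-ApoE-/- 1 and had the smallest p-value of that split, 0.0476 (exact permutation). In all, 206 of 227 values of single genes kept their direction and 21 turned.

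Of the 71 list genes, leaving out 1 library gave 3 to 15 lower and 0 to 5 higher at an unadjusted p-value under 0.05, with 3 lower without NPRC-/-ApoE-/- 2 and 6 lower without ApoE-/- 3 or NPRC-/-ApoE-/- 3. The share over all loci is not given here for these fits, nor for the filter and the replicate block below. A change of the list genes alone can therefore not be told from a change of all loci. DESeq2 gave 5 higher, and 3 at an adjusted p-value. The filter at a mean of 5 FPKM kept only 36 list genes, of which 5 were lower and 1 higher, and it kept 3 of the 8 genes. Genotype entry gave 0 lower and 1 higher, 1.41% of the 71 beside 1.31% of all loci. The causes were not tested. Same-numbered libraries did not deviate together (r of -0.274, -0.128 and -0.012), and with the replicate number as a block in 6 libraries 0 list genes were higher and 8 lower, beside 3 and 12 without it, and 0 of the 8 genes passed. No list count was made over the 4 libraries whose labels agree. The number of libraries limits the precision: the interval of Foxo3 spans 0.441-fold to 1.49-fold.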
